A study of Mus musculus with 43 samples.

Results

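The chemokine and chemokine receptor genes described here were 9 of the 55416 genes in the deposited count files, picked by name: the CC ligands Ccl2, Ccl3, Ccl4 and Ccl12, the CXC ligands Cxcl10 and Cxcl12, the transmembrane ligand Cx3cl1, and the receptors Cxcr4 and Ackr3. All 9 had an entry in each of the 43 count files, though Ccl12, Cxcl12, Cxcr4 and Ackr3 had 0 counts in some libraries. The study asked whether a lack of lymphocytes alters glial gene expression, and sequenced RNA of oligodendrocytes, oligodendrocyte progenitor cells (OPCs), astrocytes and microglia from the cerebral cortex of 3-month-old Rag2-/- mice, which have no mature T or B cells, and of their littermates. Control mice of pairs 1, 2, 3 and 5 were Rag2+/- and those of pairs 4 and 6 Rag2+/+. Both mice of pairs 2 and 5 and the Rag2-/- mouse of pair 6 were female and the others male. Astrocytes and microglia gave 6 control and 6 Rag2-/- libraries each, OPCs 6 and 5 (without the Rag2-/- mouse of pair 5), and oligodendrocytes 4 and 4 (pairs 1, 3, 5 and 6).

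The 4 cell types were taken from 1 suspension per mouse on successive antibody-coated plates: CD45 for microglia, PDGFRα for OPCs, GalC for oligodendrocytes and HepaCAM for astrocytes. CD45 also binds other leukocytes, including macrophages of the brain borders. The libraries of each cell type shared a sequencing lane, so a lane effect and a cell type effect cannot be told apart. Each library is a bulk sample, in which fewer cells of a type and less RNA per cell cannot be told apart. Counts assigned to genes ran from 6499417 to 23118497 per library with a median of 10447042, and mitochondrial genes took 6.75% to 11.7% of them in microglia, 22.4% to 36.7% in OPCs, 22.5% to 45.1% in astrocytes and 45.8% to 60.1% in oligodendrocytes. Iftap, whose gene overlaps Rag2, had 0 to 2 counts in each Rag2-/- library and 14 to 208 in each control, which fits the labels, whereas Rag2 itself had at most 4 counts in any library. Markers of each named type were at 2664 normalised CPM (counts scaled for library size) or more in sum in that type's own libraries, and no own marker was at 0.

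Chemokines are small secreted or membrane-tethered proteins that bind G protein-coupled receptors on leukocytes, glia and neurons and steer their migration. CCL2 and CCL12 signal through CCR2 and CXCL10 through CXCR3, CCL3 and CCL4 attract macrophages and T cells, and these ligands are induced by NF-kB or interferon signalling. CXCL12 guides cells through CXCR4, while ACKR3 binds CXCL12 and removes it without signalling through G proteins. CX3CL1, known in the brain as a neuronal ligand, acts on CX3CR1 of microglia.

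The genes lie on 5 chromosomes of the GRCm39 build. The CC ligands sit together on chromosome 11, with Ccl2 at 81926397 to 81928279 (+ strand), Ccl12 at 81992645 to 81994466 (+), Ccl3 at 83538670 to 83540191 (- strand) and Ccl4 at 83553383 to 83555509 (+). Ackr3 (90131689 to 90144473, +) and Cxcr4 (128515936 to 128520044, -) lie on chromosome 1, Cxcl10 at 92494497 to 92496748 (-) on chromosome 5, Cxcl12 at 117144945 to 117158328 (+) on chromosome 6 and Cx3cl1 at 95498637 to 95509055 (+) on chromosome 8. Positions and exons are from a GENCODE annotation, not the Ensembl release that the authors used. In it, an exon of Gm53692 on the opposite strand covered 35.6% of the exonic bases of Ccl3. That of Art3 covered 5.91% of Cxcl10 and that of 1700121C10Rik 10.8% of Cx3cl1. Whether the authors' release holds these exons was not checked. Whether strand was used in counting is not given in the sources used here. How far the counts of these 3 genes are affected is therefore not known. No 50-base stretch of any of the 9 transcripts had an exact copy elsewhere in the genome.

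The sequences upstream of Cxcl10 and Ccl3 are shown because these inducible ligands had the widest range between cell types that a promoter of the RefSeq table (GRCm38.p6) could be set beside. The 250 bases before the start were matched to GRCm39 at chr5:92496749-92496998 for Cxcl10 and chr11:83540205-83540454 for Ccl3, both on the - strand. Capitals mark the NF-kB consensus, the AP-1 letters TGANTCA and the interferon-response letters GAAANNGAA on either strand.
Cxcl10: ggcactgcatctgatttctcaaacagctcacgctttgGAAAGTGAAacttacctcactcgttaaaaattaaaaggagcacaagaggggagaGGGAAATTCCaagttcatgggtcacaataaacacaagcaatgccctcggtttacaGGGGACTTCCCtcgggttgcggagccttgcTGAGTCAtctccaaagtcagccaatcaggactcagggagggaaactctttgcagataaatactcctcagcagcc
Ccl3: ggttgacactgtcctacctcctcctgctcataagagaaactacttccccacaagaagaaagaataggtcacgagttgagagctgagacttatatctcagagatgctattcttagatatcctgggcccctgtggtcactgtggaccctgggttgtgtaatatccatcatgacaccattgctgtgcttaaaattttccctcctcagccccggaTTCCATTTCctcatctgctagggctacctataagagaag
Cxcl10 held 3 matches to the NF-kB consensus, a pair of which overlap, 1 to TGANTCA and 1 to GAAANNGAA, and Ccl3 held 1 to GAAANNGAA on the reverse strand. Of 32536 promoters searched over the same length, 7.28% held the NF-kB consensus, 6.73% TGANTCA and 7.15% GAAANNGAA. The other 5 promoters found held none of these 3, and TATAAA, present in 12.3% of all promoters, occurred in those of Ccl12, Ackr3, Cx3cl1 and Cxcr4. Ccl2 and Ccl4 had no entry. A match describes letters and is not a binding site.

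Microglia held the highest level of 6 genes, which were the 4 CC ligands, Cxcl10 and Cxcr4. OPCs held the highest level of Cxcl12 and Ackr3, and Cx3cl1 was highest in oligodendrocytes and OPCs. Levels below are normalised CPM, and each level is a mean ± SD over the libraries of a cell type unless said otherwise. Differences are log2 fold changes with their SE from edgeR's quasi-likelihood test, called at an adjusted p under 0.05 over all 21368 genes tested.

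**Figure D1:**
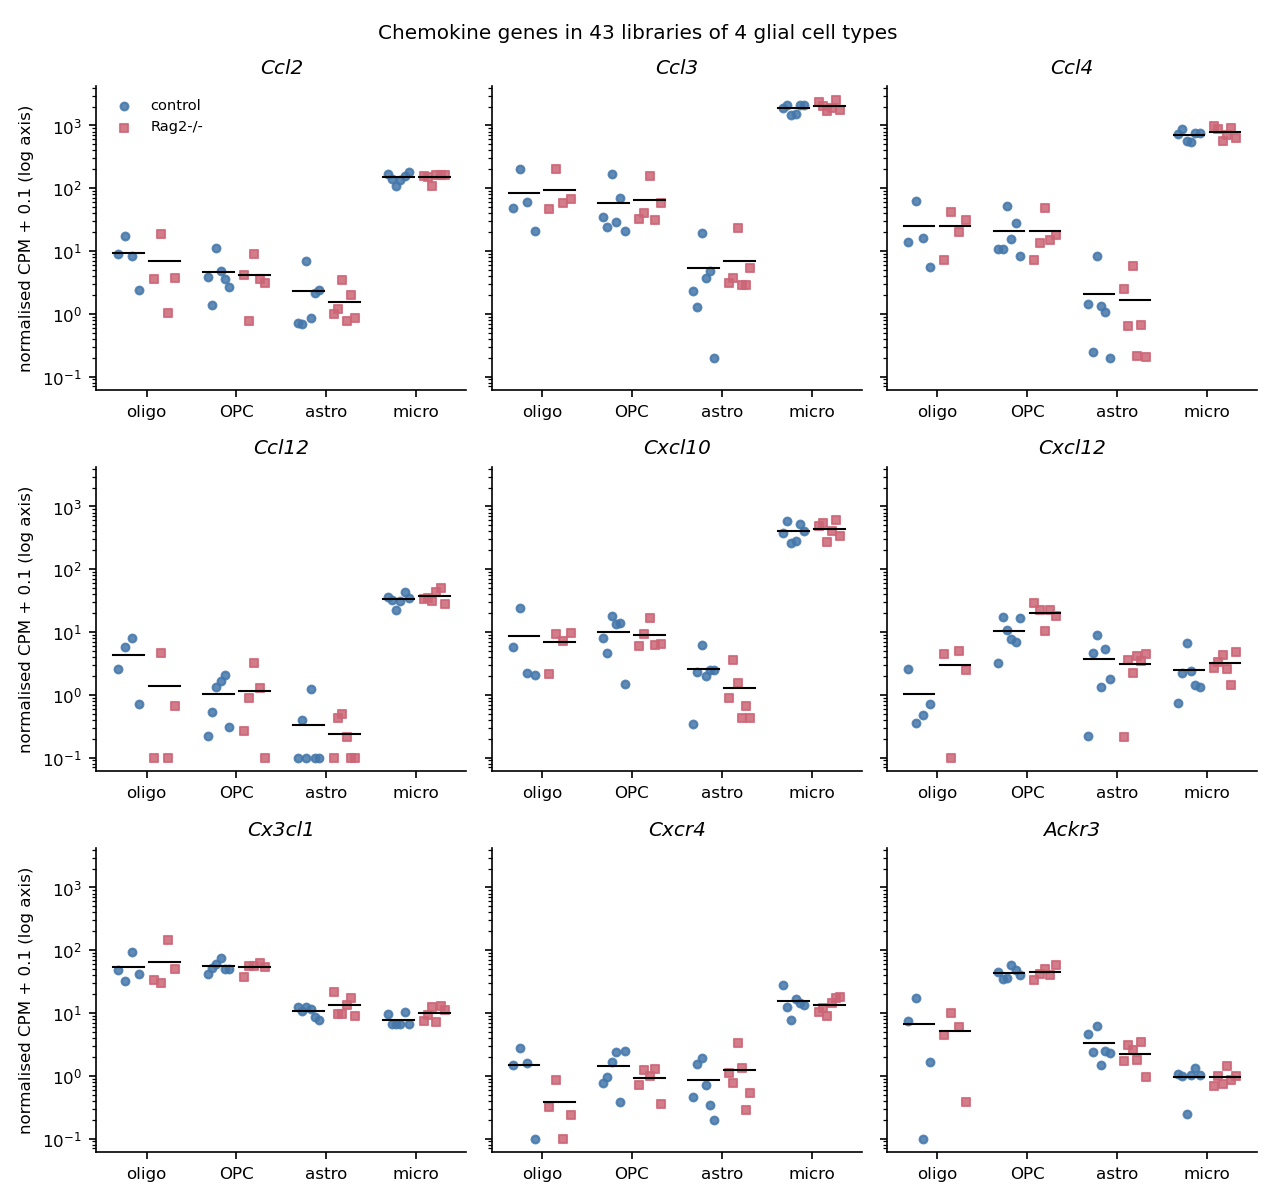
Level of each gene in each library, as normalised CPM plus 0.1 on a log axis, by cell type, with circles for control and squares for Rag2-/- libraries and a line at each group's mean. The CC ligands, Cxcl10 and Cxcr4 were highest in microglia, and Ackr3 and Cxcl12 in OPCs, with control and Rag2-/- points overlapping in each of the 9 panels.

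Ccl3 was the most abundant of the 9 per length. In microglia its level was 1476, 1997 and 2147 normalised CPM in the lowest, median and highest control library and 1726, 2001 and 2559 in the Rag2-/- libraries. It was 88.7 ± 71.9 (n = 8) in oligodendrocytes, 60.4 ± 52.8 (n = 11) in OPCs and 6.00 ± 7.34 (n = 12) in astrocytes, against 1970.1 ± 316 (n = 12) in microglia. The lowest microglial library thus stood above every library of the other types, the highest of which was at 204. The log2 difference of microglia was 4.57 ± 0.54 from oligodendrocytes (adjusted p = 5.86e-10), 5.10 ± 0.48 from OPCs (9.5e-13) and 8.45 ± 0.55 from astrocytes (3.35e-18). Oligodendrocytes and OPCs did not differ beyond their spread (-0.53 ± 0.45, adjusted p = 0.366), and both lay above astrocytes.

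Ccl4, a close relative of Ccl3, ran from 552 to 974 normalised CPM in microglia, with a median of 743 in control and 780.1 in Rag2-/- libraries. It was 24.6 ± 19.4 in oligodendrocytes, 20.6 ± 15.7 in OPCs and 1.77 ± 2.54 in astrocytes. The order was that of Ccl3, with oligodendrocytes and OPCs again indistinguishable (log2 difference -0.27 ± 0.44, adjusted p = 0.668). Microglia exceeded astrocytes by 8.77 ± 0.55 on the log2 scale (adjusted p = 1.21e-18).

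Ccl2, the main ligand of CCR2 and an attractant of monocytes, was at 106, 149 and 183 normalised CPM in the lowest, median and highest control library of microglia and at 108, 159 and 165 in the Rag2-/- libraries. In oligodendrocytes it was 8.72, 17.1, 8.15 and 2.30 in the controls of pairs 1, 3, 5 and 6 and 3.54, 18.8, 0.943 and 3.64 in their Rag2-/- littermates. It averaged 4.26 ± 3.08 in OPCs and 1.81 ± 1.80 in astrocytes. Microglia were higher by 4.41 ± 0.44, 5.30 ± 0.40 and 6.44 ± 0.41 on the log2 scale than oligodendrocytes, OPCs and astrocytes. Oligodendrocytes and OPCs differed by -0.90 ± 0.38, which missed the threshold (adjusted p = 0.0599) but passed with DESeq2, which called 10.9% of all genes lower in OPCs. Astrocytes were below OPCs by -1.14 ± 0.38 (adjusted p = 0.013), a call lost in control libraries alone (-0.96, 0.169).

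Ccl12, a second CCR2 ligand of the mouse, was the least abundant CC ligand, at 21.99 to 49.97 normalised CPM in microglia (35.0 ± 7.55). Its counts were low elsewhere, at 0 to 44 in oligodendrocytes, 0 to 52 in OPCs and 0 to 9 in astrocytes, where 0 counts in a library allow up to 3. The log2 difference between microglia and OPCs was 5.19 ± 0.61 (adjusted p = 3.8e-10). Oligodendrocytes and OPCs differed by -1.41 ± 0.62 (adjusted p = 0.0654), and with the mouse as a replicate block this became -1.65 ± 0.61 (adjusted p = 0.0310), which passed, as did control libraries alone (-2.19, adjusted p = 0.0225). Astrocytes were below OPCs by -2.37 ± 0.73 (adjusted p = 0.00732), a call lost in control libraries alone (-1.91, 0.0915) and without the libraries of pair 3 (-1.82, 0.0754).

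Cxcl10, an interferon-inducible attractant of CXCR3-bearing T cells, followed Ccl3 and Ccl4 in microglial level per length. Its level was 258, 390.4 and 592 normalised CPM in the lowest, median and highest control library and 273, 444 and 599 in the Rag2-/- libraries. It averaged 9.34 ± 5.22 in OPCs, 7.71 ± 7.38 in oligodendrocytes and 1.84 ± 1.69 in astrocytes. Microglia were higher by 5.77 ± 0.49, 5.51 ± 0.42 and 7.87 ± 0.46 on the log2 scale than oligodendrocytes, OPCs and astrocytes. OPCs and oligodendrocytes did not differ beyond their spread (0.26 ± 0.41, adjusted p = 0.643).

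Per kilobase of exon, which allows a comparison between genes, the microglial levels were 2539 normalised CPM for Ccl3, 1081 for Ccl4, 188 for Cxcl10, 132 for Ccl2, 43.5 for Ccl12 and 7.84 for Cxcr4, and 149 for the receptor gene Cx3cr1. Genes of NF-kB signalling and early cytokines (Nfkbia, Nfkbiz, Tnfaip3, Tnf, Il1a, Il1b) were also high in these libraries, with a summed level of 4617 to 6807 in microglia against at most 446 in any other library. The immediate early gene list, which dissociation is known to induce, summed to 4309 to 7769 in microglia and 1197 to 2850 in the other types. An interferon-response list summed to 20.9 to 69.3 in microglia, and T cell and B cell lists stayed at or below 10.2 in every library. In microglia the T cell list summed to 2.24 to 5.64 in control and to 0 to 0.59 in Rag2-/- libraries. The B cell list summed to 2.56 to 6.10 and to 1.45 to 10.2 in the same groups. A monocyte and neutrophil list summed to 4.82 to 66.6 in microglia and to at most 0.559 elsewhere. Their part in the chemokine levels was not tested.

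Macroglial libraries held some microglial RNA, and the levels of the ligands in them are given beside it. Expressed as a share of the microglial mean, Ccl3 had a median of 3.02% in oligodendrocytes, 1.74% in OPCs and 0.167% in astrocytes. The median share of 7 microglial marker genes, among them Tmem119, P2ry12, Csf1r and Aif1, was 7.01%, 3.54% and 1.39% in the same libraries, and none of the 7 was at 0 in any library. The ratio of the Ccl3 share to the marker share, taken in each library, had a median of 0.463 in oligodendrocytes, 0.698 in OPCs and 0.113 in astrocytes. In the same order it was 0.376, 0.579 and 0.0728 for Ccl4, 0.523, 0.600 and 0.575 for Ccl2, and 0.209, 0.437 and 0.159 for Cxcl10. Ccl12, on few counts, had medians of 0.822, 0.457 and 0. Cxcr4 was below the marker share in oligodendrocytes (0.328) and above it in OPCs (1.91) and astrocytes (2.78). A border macrophage list (Mrc1, Cd163, Lyve1, F13a1, Ms4a7) summed to 314 to 686 in microglia, 7.35 to 151 in oligodendrocytes, 5.83 to 64.0 in OPCs and 0.987 to 23.4 in astrocytes. How much of each ligand in the macroglial libraries came from these cells was not tested.

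The libraries of pair 3 stood apart for Ccl2, Ccl3 and Ccl4 in the macroglial types. Among the 6 groups of macroglial libraries (3 cell types, 2 genotypes), pair 3 was the highest for Ccl2, Ccl3 and Ccl4 in 6 of 6, for Cxcl10 and Cxcr4 in 4, for Ccl12 in 3 and for the microglial marker share in 5. Ccl3 in OPCs was 168 in the pair 3 control and 158 in its Rag2-/- littermate, against 20.4 to 69.8 in the other OPC libraries. Among microglial libraries the same mice were the lowest of their group instead, in both genotypes, for Ccl2 (106 and 108), Ccl3 (1476 and 1726), Cxcl10 (258 and 273) and Cxcr4 (7.70 and 8.998), and in 1 of the 2 genotypes for Ccl4 and for Ccl12. Their border macrophage (314 and 324) and interferon (20.9 and 30.0) lists were also lowest, while the microglial list was not (7171 and 8215). Neither were their NF-kB list (5470 and 5284) and their immediate early list (5206 and 5373) the lowest. Without the libraries of pair 3, an alternative chosen after seeing the data, the microglial excess of each of these ligands was still called against each macroglial type.

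**Figure D2:**
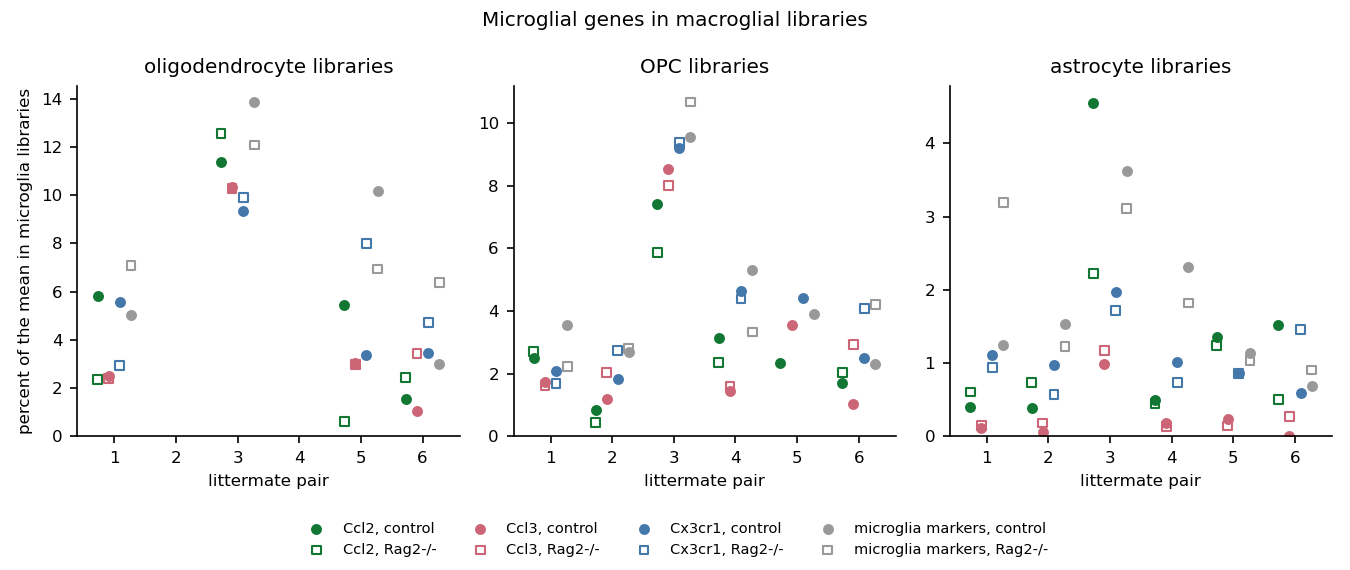
Ccl2, Ccl3, Cx3cr1 and the median of the microglial markers in oligodendrocyte, OPC and astrocyte libraries by littermate pair, as a percentage of the microglial mean, with filled points for control and open points for Rag2-/-. Pair 3 held the highest Ccl2 and Ccl3 share in each cell type and genotype.

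The axis of CXCL12 and its receptors was divided between cell types. Ackr3, the atypical receptor that takes up CXCL12, was at 44.9, 35.2, 36.4, 57.1, 48.04 and 40.7 normalised CPM in the OPCs of control mice 1 to 6, and at 33.6, 41.5, 49.4, 40.5 and 57.8 in those of Rag2-/- mice 1, 2, 3, 4 and 6. Every OPC library was above every library of another type, the highest of which was an oligodendrocyte library at 17.6. Oligodendrocytes averaged 5.87 ± 5.87, astrocytes 2.66 ± 1.48 and microglia 0.854 ± 0.305. OPCs were higher by 2.96 ± 0.44 on the log2 scale than oligodendrocytes (adjusted p = 4.01e-07), and astrocytes and microglia were lower than OPCs by -4.05 ± 0.39 (6.78e-12) and -5.66 ± 0.43 (6.72e-16). Astrocytes were below oligodendrocytes by -1.09 ± 0.40 (adjusted p = 0.0221), which was lost with the mouse as a replicate block (-0.93, adjusted p = 0.0808), in control libraries alone (-0.97, 0.234) and without the libraries of pair 3 (-0.42, 0.428). The OPC marker list (Pdgfra, Cspg4, C1ql1, Neu4, Gpr17, Lhfpl3) stood at 5.63% to 25.7% of its OPC level in oligodendrocyte libraries and at 0.814% to 5.50% in astrocytes, and its part in their Ackr3 was not tested.

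Cxcl12 was low in every type and highest in OPCs. Its level in control OPCs was 3.06, 17.5, 10.8, 7.68, 6.92 and 16.6 normalised CPM in pairs 1 to 6, and in Rag2-/- OPCs 28.7, 22.7, 10.3, 21.9 and 18.02 in pairs 1, 2, 3, 4 and 6. Astrocytes were at 3.29 ± 2.48, microglia at 2.73 ± 1.72 and oligodendrocytes at 1.92 ± 1.93. OPCs were higher than oligodendrocytes by 3.00 ± 0.59 on the log2 scale (adjusted p = 6.86e-05), and astrocytes (-2.13 ± 0.49, 0.000383) and microglia (-2.41 ± 0.48, 2.74e-05) were lower than OPCs. The difference between OPCs and astrocytes was lost in control libraries alone (-1.47, adjusted p = 0.107). Oligodendrocytes, astrocytes and microglia could not be ordered (adjusted p = 0.197, 0.343 and 0.607). Cxcl12 is known to be made by vascular and meningeal cells, and a mural cell and fibroblast list (Pdgfrb, Rgs5, Acta2, Kcnj8, Col1a1, Dcn) summed to 69.8 to 296 in OPCs, 91.1 to 149.8 in astrocytes, 15.3 to 45.0 in microglia and 9.07 to 98.0 in oligodendrocytes. An endothelial list summed to 18.8 to 77.5 in OPCs and to at most 50.2 in the other types, and the part of either list was not tested.

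Cxcr4, the signalling receptor of CXCL12, was highest in the microglial libraries among these 4 types. Its level was 7.70, 13.7 and 27.3 normalised CPM in the lowest, median and highest control library of microglia, and 8.998, 13.1 and 17.7 in the Rag2-/- libraries. OPCs were at 1.105 ± 0.728, astrocytes at 0.947 ± 0.902 and oligodendrocytes at 0.840 ± 0.967, with at most 36 counts in any of these libraries. Microglia were higher by 4.27 ± 0.58, 3.87 ± 0.48 and 3.97 ± 0.48 on the log2 scale than oligodendrocytes, OPCs and astrocytes, whereas the 3 macroglial types were not distinguishable (adjusted p = 0.587, 0.684 and 0.880). Ackr3 and Cxcr4, both receptors of CXCL12, were thus highest in different cell types.

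Cx3cl1, the tethered ligand of CX3CR1, was at 48.8, 31.9, 95.0 and 41.8 normalised CPM in control oligodendrocytes of pairs 1, 3, 5 and 6, and at 33.4, 29.8, 147 and 50.4 in their Rag2-/- littermates. OPC libraries ran from 37.3 to 76.0 (54.3 ± 10.3), astrocytes from 7.77 to 21.7 (11.9 ± 3.98) and microglia from 6.49 to 13.03 (8.88 ± 2.38). Oligodendrocytes and OPCs did not differ beyond their spread (-0.05 ± 0.22, adjusted p = 0.873), and no astrocyte or microglial library reached any of theirs. Astrocytes were lower by -2.27 ± 0.22 than oligodendrocytes and by -2.22 ± 0.20 than OPCs on the log2 scale. Microglia were lower than astrocytes by -0.44 ± 0.20 (adjusted p = 0.0423), a call that was lost in control libraries alone (-0.42). Neuronal markers (Snap25, Syt1, Rbfox3, Stmn2, Slc17a7, Gad1, Nefl) summed to 581 to 2985 in oligodendrocytes, 303 to 632 in OPCs, 124 to 352 in astrocytes and 51.1 to 114 in microglia, with none at 0, and their part in Cx3cl1 was not tested. Its receptor gene Cx3cr1 lay at 692 ± 85.04 in microglia and at 40.9, 29.5 and 7.38 in oligodendrocytes, OPCs and astrocytes.

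Counted over the 9 genes, microglia were higher than oligodendrocytes for 6 and lower for 2, higher than OPCs for 6 and lower for 3, and higher than astrocytes for 6 and lower for 2. Over all genes tested, the shares called higher and lower were 33.0% and 34.4%, 30.5% and 38.4%, and 33.2% and 36.2%. OPCs were higher than oligodendrocytes for 2 (22.7% of all genes) and lower for none (16.1%), where 4 had an unadjusted p under 0.05. Astrocytes were lower than oligodendrocytes for 7 (26.8%) and lower than OPCs for 8 (25%), and higher than either for none (22.4% and 16.9%). The median log2 difference of the 9 was 4.27, 5.10 and 6.44 for microglia against oligodendrocytes, OPCs and astrocytes, where all genes had medians of 0.01, -0.18 and -0.09. When libraries were scaled to the total of nuclear genes in place of TMM, the medians of all genes became -0.08, -0.67 and -0.33, and 0.57 for OPCs against oligodendrocytes in place of 0.17 and -0.40 for astrocytes against OPCs in place of -0.14. Genes called higher and lower in OPCs than in oligodendrocytes then numbered 8208 and 2150 in place of 4850 and 3447, those in astrocytes than in OPCs 2623 and 7496 in place of 3607 and 5344, and those in microglia than in OPCs 4521 and 10325 in place of 6513 and 8206. Each called gene of the 9 kept its call and direction under that scaling.

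Genotype was compared within each cell type to ask whether the lack of lymphocytes went with other levels of these genes. None of the 9 was called between Rag2-/- and control libraries by edgeR, among 9 tested in microglia, 9 in OPCs, 8 in oligodendrocytes and 6 in astrocytes. Cxcr4 in oligodendrocytes and Ccl4, Ccl12 and Cxcr4 in astrocytes were too low to be tested. An unadjusted p under 0.05 was met by 1 gene, Cxcl12 in OPCs, and DESeq2 called 0 in each cell type. Over all genes, edgeR called 0.00667% in microglia, 0.00592% in OPCs, 0% in oligodendrocytes and 0.00679% in astrocytes, and DESeq2 0.00916%, 0.0149%, 0.695% and 0.00300%. At an unadjusted p under 0.05 the shares were 2.91%, 4.02%, 3.38% and 2.87%.

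**Figure D3:**
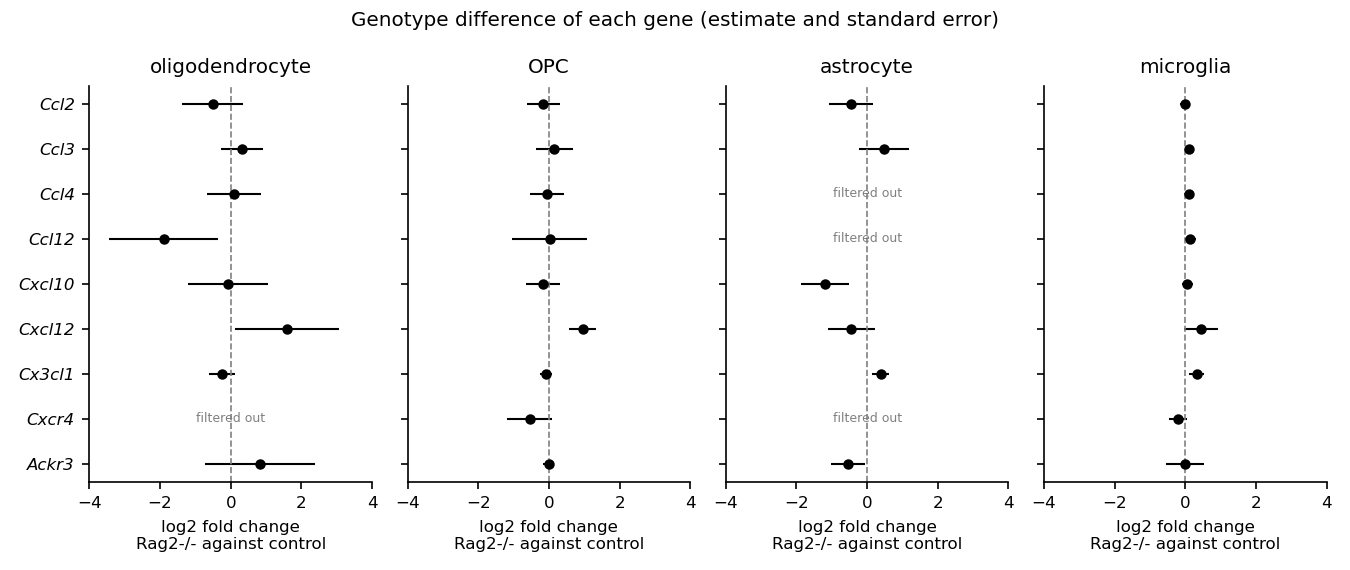
Log2 fold change of Rag2-/- against control for each gene, 1 panel per cell type, with bars of 1 SE from edgeR's quasi-likelihood fit, and genes too low to test marked as filtered out. Bars were shortest in microglia for the abundant ligands, and Cxcl12 in OPCs (0.95 ± 0.37) was the only point with an unadjusted p under 0.05.

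In microglia, where the ligands were measured on the most counts, the log2 difference between genotypes was 0.10 ± 0.12 for Ccl3, 0.09 ± 0.13 for Ccl4, -0.01 ± 0.13 for Ccl2, 0.14 ± 0.16 for Ccl12, 0.06 ± 0.16 for Cxcl10 and -0.21 ± 0.26 for Cxcr4. Ccl3, Ccl4, Ccl12 and Cxcl10 were each higher in the Rag2-/- library of 4 of 6 pairs. Control and Rag2-/- levels overlapped for each of them. With pair as a replicate block, Ccl3 differed by 0.21 with an unadjusted p of 0.0376 and an adjusted p of 0.973. Cx3cr1 differed by 0.21 ± 0.10 (adjusted p = 0.999). The SE was wider in the macroglial types, as for Ccl3 with 0.31 ± 0.60 in oligodendrocytes, 0.15 ± 0.51 in OPCs and 0.49 ± 0.70 in astrocytes.

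Cxcl12 in OPCs was higher in the Rag2-/- library of 4 of 5 pairs, by 0.95 ± 0.37 on the log2 scale (adjusted p = 1.00). The groups overlapped between 10.3 and 17.5 normalised CPM. The largest gap was in pair 1, with 3.06 in the control and 28.7 in the Rag2-/- library, and pair 3 was level at 10.8 and 10.3. With pair as a replicate block the difference was 1.19 ± 0.44 (adjusted p = 0.992), DESeq2 gave an adjusted p of 0.715, and without a filter on low counts it passed at 0.0310, where 0.266% of all genes were called in place of 0.00592%. The mural cell and fibroblast list summed to 91.8, 208, 71.7, 69.8, 94.3 and 137 in the control OPCs of pairs 1 to 6 and to 296, 199.6, 82.1, 180.1 and 150.3 in the Rag2-/- OPCs of pairs 1, 2, 3, 4 and 6. The endothelial list summed to 18.8, 47.1, 30.5, 21.9, 32.6 and 37.4 and to 77.5, 58.7, 22.01, 60.6 and 37.3 in the same libraries. Both lists were highest in the Rag2-/- library of pair 1, where Cxcl12 was highest too, and their part in the difference was not tested. The other genes highest in OPCs, Ackr3 and Cx3cl1, differed by -0.01 ± 0.17 and -0.07 ± 0.17.

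The largest genotype difference that edgeR fitted among the 9 genes, where they passed its filter, was that of Ccl12 in oligodendrocytes, which rested on few counts. It had 20, 44, 42 and 4 counts in the controls of pairs 1, 3, 5 and 6 and 0, 35, 0 and 4 in their Rag2-/- littermates, and 0 counts allow up to 3. Its normalised CPM was lower in the Rag2-/- library of 4 of 4 pairs, though by little in pair 6 (0.613 and 0.560), and the groups overlapped. The fitted log2 difference was -1.89 ± 1.55 (adjusted p = 0.998) and, with pair as a replicate block, -4.25 ± 2.06 (unadjusted p = 0.0673, adjusted p = 0.999). DESeq2 gave -1.95 ± 1.57 for Ccl12. It gave -2.44 ± 1.78 for Cxcr4, which edgeR filtered out in oligodendrocytes (DESeq2 adjusted p = 0.999 for each gene).

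**Figure D4:**
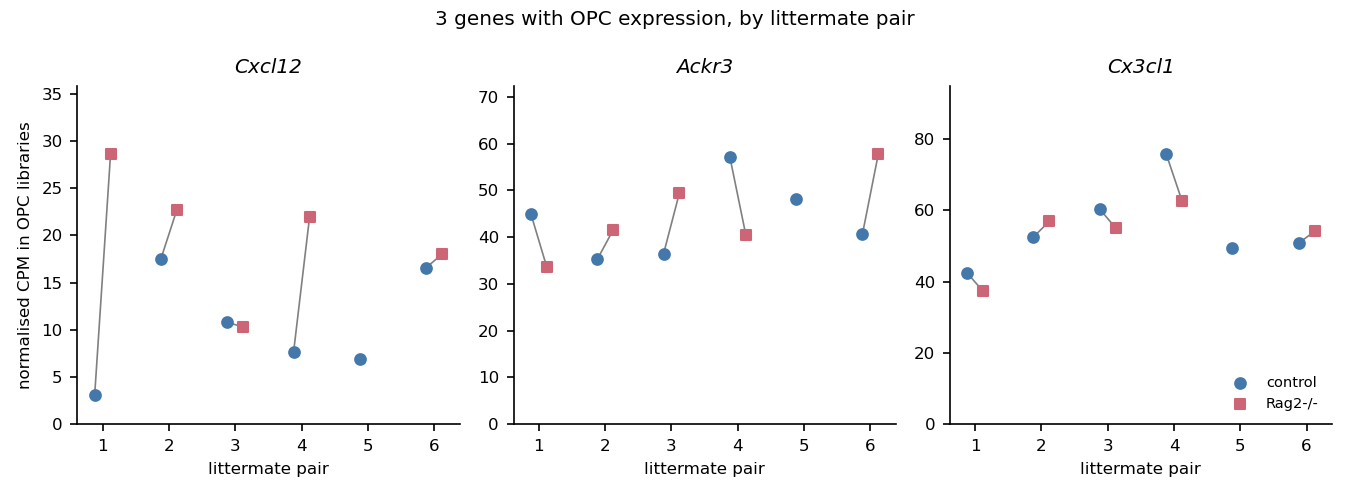
Normalised CPM of Cxcl12, Ackr3 and Cx3cl1 in each OPC library by littermate pair, with grey lines joining the control and Rag2-/- library of a pair. Cxcl12 was higher in the Rag2-/- mouse of 4 of 5 pairs, while Ackr3 and Cx3cl1 were higher in some pairs and lower in others.

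Whether the genotype difference depended on cell type was tested by an interaction over all libraries. None of the 9 was called (lowest adjusted p = 0.538 for Cxcr4), none had an unadjusted p under 0.05, and DESeq2 called 0. Over all genes edgeR called 0.248%, 11.2% had an unadjusted p under 0.05, and DESeq2 called 1.13%. Without a filter on low counts 1 of the 9 passed, Cxcl10 (adjusted p = 0.0468), where edgeR called 2.57% of all genes.

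Sex was a term in the fit of each cell type and was confounded in part with litter, since pairs 2 and 5 were all female and pairs 1, 3 and 4 all male. None of the 9 was called by edgeR in any cell type, where 0.0467% of all genes were called in microglia, 0.0296% in OPCs, 0.0362% in oligodendrocytes and 0.0407% in astrocytes. An unadjusted p under 0.05 was met by Cxcl10 in microglia (3.92% of all genes), Ccl2 in OPCs (4.30%), Cx3cl1 in oligodendrocytes (8.23%) and none in astrocytes (6.73%). DESeq2 called 1, Cx3cl1 in oligodendrocytes (1.49% of all genes), and 0 in microglia (0.0336%), OPCs (0.0388%) and astrocytes (0.0540%).

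Cx3cl1 was at 95.0, 147 and 50.4 normalised CPM in the 3 female oligodendrocyte libraries and at 48.8, 33.4, 31.9, 29.8 and 41.8 in the 5 male ones. The log2 difference was 1.58 ± 0.38 (adjusted p = 0.474, and 0.0158 with DESeq2), and it also passed without a filter on low counts, where 0.337% of all genes were called. Both libraries above 90 came from pair 5, and without that pair, an alternative chosen after seeing the data, the difference was 0.77 (adjusted p = 0.673). The neuronal list summed to 2238, 2219 and 2242 in the female libraries and to 1011, 1155, 605, 581 and 2985 in the male ones, and its part was not tested.

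Cxcl10 in microglia was at 592, 555, 531, 599 and 333 normalised CPM in the 5 female libraries and at 258, 380.2 and 488 in the lowest, median and highest of the 7 male ones. The log2 difference was 0.56 ± 0.16 (adjusted p = 0.867, and 0.356 with DESeq2), and it passed only without a filter on low counts (adjusted p = 0.00141), where 0.0760% of all genes were called. Without pair 3 it was 0.41. Pair 6, the only pair of mixed sex, went the other way, with 401 in the male control and 333 in the female Rag2-/- library. Ccl2 in OPCs was lower in females by -1.32 ± 0.52 (adjusted p = 0.999), and by -0.80 without the libraries of pair 3.

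**Figure D5:**
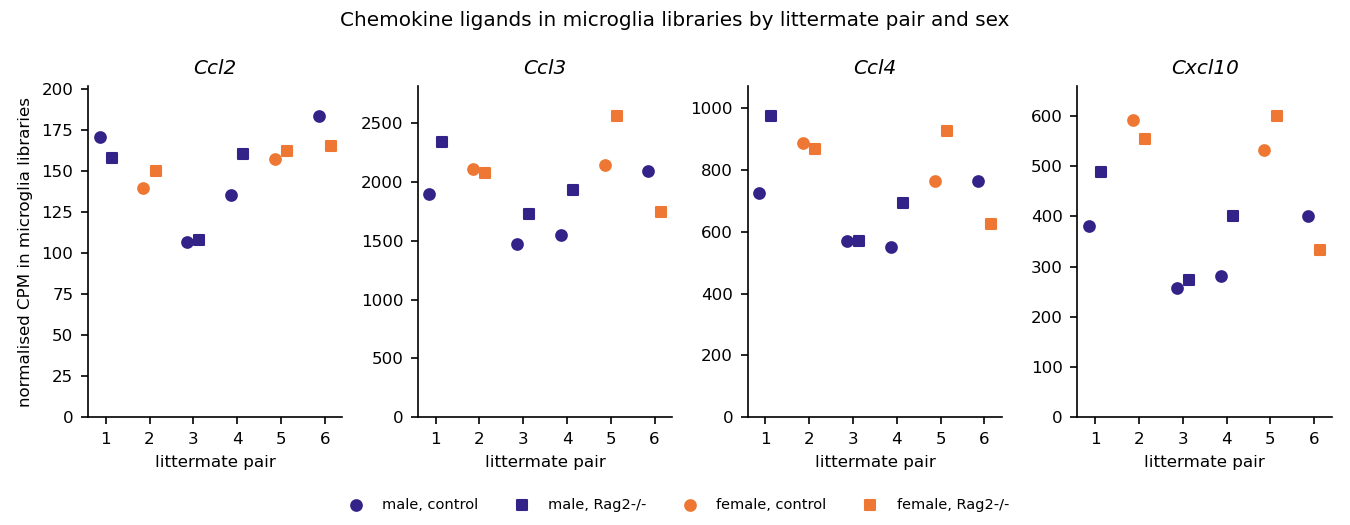
Normalised CPM of Ccl2, Ccl3, Ccl4 and Cxcl10 in the 12 microglial libraries by littermate pair, with colour for sex and shape for genotype. Both libraries of pairs 2 and 5 (female) lay between 531 and 599 for Cxcl10, and those of pair 3 (male) were the lowest of their genotype for Ccl2, Ccl3 and Cxcl10.

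Among microglial libraries, Ccl3 and Ccl4 moved together, with Pearson's r = 0.931 on log2 levels over 12 libraries (permutation p = 1e-05, the smallest that 100000 resamples give; adjusted over 4 pairs of genes 4e-05) and Spearman's rho = 0.930 (permutation p = 3e-05). The r was 0.901 without the 2 libraries farthest from the median of Ccl3, and 0.941 within control and 0.932 within Rag2-/- libraries (exact permutation p = 0.0139 and 0.0111, n = 6 each). For Ccl2 with Ccl3 (r = 0.620, rho = 0.427), Ccl2 with Ccl12 (0.575, 0.503) and Ccl4 with Ccl12 (0.549, 0.552) the adjusted permutation p of r was 0.0627 in each case. The first of these dropped to 0.302 and the second to 0.202 without the 2 farthest libraries, so both rested on those libraries, which included pair 3.

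Across all 43 libraries, which differ mostly in cell type, the genes with the most similar log2 levels out of 21254 searched were Lyz2, C1qb and Lgmn for Ccl2 (r = 0.98, 0.97 and 0.97), Ccl4, Cd83 and Il1a for Ccl3 (0.99 each), and C3ar1, Cd83 and Ccl3 for Ccl4 (0.99 each). Cxcl10 was closest to Entpd1, Dgkd and Gm14023 (0.98, 0.97 and 0.97), Ccl12 to Fam83g, Dusp2 and Rcsd1 (0.96 each), and Cxcr4 to Snx17, Ninj1 and Adam17 (0.94, 0.93 and 0.93). Ackr3 was closest to Sdc3, Sertad4b-ps and Matn4 (0.95, 0.94 and 0.94), and Cx3cl1 to Atp2b3, Syngr3 and Disp2 (0.95, 0.94 and 0.94). For Cxcl12 no gene exceeded 0.75 (Usp27x, Slco1a4 and Shh). These values describe a shared order of cell types and carry no test.

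Of 52 other chemokine and chemokine receptor genes, 36 were high enough to be tested and 5 had no more than 3 counts in any library. Microglia were higher than oligodendrocytes for 27 and lower for 4 (33.0% and 34.4% of all genes). Against OPCs they were higher for 26 and lower for 6 (30.5% and 38.4%), and against astrocytes for 27 and 5 (33.2% and 36.2%). OPCs were higher than oligodendrocytes for 2 (Cxcl14 and Ccr7) and lower for 6 (22.7% and 16.1% of all genes). Astrocytes were higher for 3 and lower for 15 against oligodendrocytes (22.4% and 26.8%) and likewise against OPCs (16.9% and 25%). In all, 15 averaged at least 20 normalised CPM in some cell type, and 13 of these were highest in microglia. They included the ligands Ccl9 (589 ± 118), Cxcl16 (384 ± 39.3, a transmembrane ligand of CXCR6), Ccl22 (209 ± 67.3, a ligand of CCR4), Cxcl2 (148 ± 38.3, an attractant of neutrophils), Pf4 (90.6 ± 33.5), Ccl7 (87.4 ± 24.3), Ccl5 (76.4 ± 25.04), Cxcl1 (30.7 ± 13.7) and Ccl6 (29.8 ± 4.05). The receptors among them included Cx3cr1, Ccrl2 (219.6 ± 36.0) and Ccr7 (38.5 ± 11.1).

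The remaining 2 were macroglial. Cxcl14 was at 125 ± 21.3 in astrocytes, 30.4 ± 9.32 in OPCs, 10.8 ± 6.58 in oligodendrocytes and 1.44 ± 1.04 in microglia, with astrocytes above OPCs by 2.02 ± 0.28 on the log2 scale (adjusted p = 4.94e-08). Ccl27a was at 21.7 ± 11.1 in oligodendrocytes, 7.85 ± 2.49 in astrocytes, 7.70 ± 2.16 in OPCs and 2.31 ± 1.19 in microglia. Between genotypes, no family gene was called by edgeR among 30 tested in microglia, 19 in OPCs, 17 in oligodendrocytes and 6 in astrocytes. An unadjusted p under 0.05 was met by 4, 2, 0 and 0 of them (2.91%, 4.02%, 3.38% and 2.87% of all genes). DESeq2 called 0 in each cell type as well.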

How the data were processed

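The authors mapped reads with STAR 2.7.8a to GRCm39, per the labels, and counted them per Ensembl gene with HTSeq; the deposited values are raw counts from amplified cDNA without molecular identifiers, so intervals and floors (3 counts) cover counting error only. Reads assigned to no gene were 33.5% to 52.0% per library and were left out. Samples were grouped by cell type and genotype from the labels. Counts were filtered (filterByExpr, minimum count 10, minimum total 15), TMM-normalised and tested with edgeR 4.0.16 in R 4.3.3 by the quasi-likelihood test, with genotype and sex within each cell type and jointly for cell types and the interaction, two-sided, adjusted by Benjamini-Hochberg over all genes tested. DESeq2 1.42.0, other scalings, no filter, a replicate block and left-out libraries were alternatives, and the fits were tested on simulated data. Correlations used log2(normalised CPM + 0.5) and scipy 1.17.1 with 100000 resamples. The markers of microglia, OPCs, oligodendrocytes, astrocytes, neurons, vessels, border macrophages, monocytes, T and B cells and the NF-kB, immediate early and interferon lists were summed per library.

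The 9 genes, the lists and the tests were chosen with earlier results of these data known. The text names the 9 genes, the family genes averaging at least 20 normalised CPM in some cell type, Cx3cr1, and the 3 genes most correlated with each of the 9. Replicates are separate mice. No 2 libraries of a group agreed within sampling noise (lowest chi-square per gene 8.18). The labels number the littermate pairs, so a number pairs 2 mice of 1 litter: deviations of littermate libraries correlated by a mean of 0.0690 in microglia, 0.0867 in OPCs, 0.0901 in oligodendrocytes and 0.100 in astrocytes, against -0.0140, -0.0172, -0.0297 and -0.0193 between pairs.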

Additional observations from a re-analysis of the deposited data

Results flagged for a closer look

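In 20 of 72 groups of libraries (1 gene, 1 cell type, 1 genotype), 1 library stood farther from the others than Dixon's 95% limit allows. Chance gives about 1 in 20 groups where groups are independent and values normally distributed. These groups shared libraries between correlated genes and were tested on levels without a log scale, so that rate cannot measure an excess here. Of the 20 outlying values, 17 were in libraries of pair 3. Its control library was the outlying one for Ccl2 (6.82 normalised CPM), Ccl3 (19.6), Ccl4 (8.12) and Cxcl10 (6.07) in astrocytes, for Ccl2 (11.1) and Ccl3 (168) in OPCs, for Cxcl10 in oligodendrocytes (24.3), and for Cxcl12 (6.58, highest) and Ackr3 (0.150, lowest) in microglia. Its Rag2-/- library was the outlying one for Ccl3 (23.1) and Cxcr4 (3.23) in astrocytes, for Ccl3 (158) and Ccl4 (48.6) in OPCs, for Ccl2 (18.8), Ccl3 (202.2) and Ccl12 (4.47) in oligodendrocytes, and for Ccl2 in microglia (108, lowest). The others were Ccl12 in the pair 4 control of astrocytes (1.13, 9 counts), Cxcl10 in the pair 2 Rag2-/- library of astrocytes (3.51) and Cxcl12 in the pair 1 control of oligodendrocytes (2.49, 20 counts).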

How the results depend on the processing

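By genotype, Cxcl12 in OPCs without a filter on low counts was the 1 difference of the 9 genes that passed, and the differences that turned sign below were not called. In oligodendrocytes the log2 difference turned sign with pair as a replicate block for Ccl3 (-0.0238) and Ccl4 (-0.42), with heterozygous controls alone for Ccl4 (-0.18), without pair 5 for Ccl2 (0.24), Ccl4 (-0.18) and Ackr3 (-0.31), and without pair 3 for Cxcl10 (0.51). In OPCs it did so with heterozygous controls for Ccl3 (-0.23), Ccl12 (-0.16), Cx3cl1 (0.0556) and Ackr3 (0.11), without a filter for Ackr3 (0.0012) and without pair 3 for Ccl12 (-0.72). In astrocytes Cxcl12 was at 0.27 without pair 3. In microglia Ccl2 was at 0.0025 without a filter, 0.0522 with the replicate block, 0.0609 with heterozygous controls and 0.023 without pair 3, and Ackr3 at 0.14 with the block. With 1 library left out, the differences that turned sign ranged, in oligodendrocytes, from -1.59 to 0.24 (Ccl2), -0.45 to 1.06 (Ccl3), -0.70 to 1.01 (Ccl4), -0.93 to 1.03 (Cxcl10), -0.43 to 2.60 (Cxcl12) and -0.31 to 2.09 (Ackr3), in OPCs from -0.48 to 0.17 (Ccl2), -0.52 to 0.83 (Ccl3), -0.68 to 0.46 (Ccl4), -0.82 to 0.63 (Ccl12), -0.53 to 0.12 (Cxcl10), -0.16 to 0.0478 (Cx3cl1) and -0.11 to 0.0941 (Ackr3), in astrocytes from -0.91 to 0.17 (Ccl2), -0.41 to 1.39 (Ccl3) and -0.89 to 0.33 (Cxcl12), and in microglia from -0.0769 to 0.0933 (Ccl2), -0.0446 to 0.17 (Ccl4), -0.0734 to 0.15 (Cxcl10), -0.33 to 0.0197 (Cxcr4) and -0.22 to 0.13 (Ackr3). Without a filter on low counts, 1 gene was called by genotype in OPCs, Cxcl12 (90 of all 33850 genes in place of 1 of 16882). By sex, the same setting called 1 in oligodendrocytes, Cx3cl1 (99 of 29366 in place of 5 of 13802), also called with DESeq2. It called 1 by sex in microglia, Cxcl10 (25 of 32912 in place of 7 of 15003). It called 1 by the interaction, Cxcl10 (1011 of 39266 in place of 53 of 21368). Between oligodendrocytes and OPCs it called 4 (9200 of 39266 in place of 8297 of 21368). In control libraries alone, 5 were called between OPCs and astrocytes (5997 of 19368 in place of 8951 of 21368). Between cell types, uncalled differences turned sign with nuclear totals for Ccl4 (0.12) and Cx3cl1 (0.36), in control libraries alone for Cx3cl1 (0.0169) and Cxcr4 (-0.13), with the mouse as a replicate block for Cx3cl1 (0.13), all for OPCs against oligodendrocytes, in control libraries alone for Cxcr4 in astrocytes against oligodendrocytes (-0.84) and without pair 3 for Cxcl12 in microglia against oligodendrocytes (-0.13). The replicate block changed 2 calls, those of Ccl12 and Ackr3 given above, and no other. The r of Ccl2 with Ccl3 was 0.619 with a pseudocount of 5 (unadjusted permutation p = 0.0323) and that of Ccl4 with Ccl12 0.644 without the 2 farthest libraries (0.0435). The cause of these changes was not tested. Alternatives leaving out pair 3 or pair 5 were chosen after seeing the data. Low counts limit Ccl12, Cxcr4 and Cxcl12 outside the cell type where each is highest.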

Other observations

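In the tests of sex and of the interaction, DESeq2 called the other family genes Cxcl14, Pf4 and Ccl28, which edgeR with its filter on low counts did not. Cxcl14 and Pf4 were called between the sexes in oligodendrocytes (1.49% of all genes), and Ccl28 for the interaction of genotype and cell type (1.13%). Without that filter, edgeR called 7 of 49 family genes for the interaction, Ccl28 among them, where it called 2.57% of all genes. By sex it then called 1 family gene in microglia (0.0760% of all genes) and 0 in oligodendrocytes (0.337%). It also called 1 in OPCs and 2 in astrocytes. The share of all genes called there is not given here, so nothing can be read from those counts.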
